A study of Gallus gallus with 6 samples.

Results

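Chromosome 16 of the chicken is a microchromosome that carries the major histocompatibility complex (MHC). All rows that the deposited gene table places on chromosome 16 of the build GRCg6a were taken, 134 of 20285, whatever their function or level. They run from base 500015 to base 2844588. The table calls 100 of them protein coding, 8 long non-coding RNAs, 4 pseudogenes and 1 ribosomal RNA, and 21 have no Ensembl identifier. A symbol was given by the table for 37 rows and by RefSeq for 4 more (BTN1, ZNFY4, TRIM41 and BLEC1), and 93 rows have none. RNA came from the uterovaginal junction, the oviduct segment that holds the sperm storage tubules, of breeder hens in 2 groups of 3 libraries. The control hens were kept at a thermoneutral 23 °C, and the others went through 6 h of heat stress at 36 °C. Every library is a pool of RNA from 4 hens, so the 6 libraries stand for 24 hens, a replicate is a pool, and p-values measure the spread between pools. The labels do not give the strain, age or MHC haplotypes of the hens.

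MHC class I molecules present peptides made inside the cell to cytotoxic T cells, with the help of the transporter associated with antigen processing (TAP) and of tapasin, which load the peptides. MHC class II molecules present peptides taken up from outside to helper T cells, and DM molecules exchange those peptides. In the chicken the classical class I and class II genes lie close together in the compact B locus, with the loading genes between them, and a separate cluster, the Y locus, holds class I-like and lectin-like genes. Chicken MHC genes are highly polymorphic and differ between haplotypes.

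Of the 134 rows, 92 had enough counts to be tested and 42 did not. The untested rows had a mean of at most 1.08 CPM (read counts scaled to library size, with TMM factors). Heat stress was compared with thermoneutral by the quasi-likelihood test of edgeR, and p-values were adjusted by the Benjamini-Hochberg method over all 15655 genes tested and a threshold of 0.05. At that threshold 9 chromosome 16 rows were called, 9.78% of those tested, where 19.8% of all tested genes were called. Heat stress was higher in 2 of them, BRD2 and PPP1R10, against 10.2% of all tested genes called higher. It was lower in 7, against 9.52% called lower. The median log2 change of the 92 rows was −0.30, against −0.008 for all tested genes, and 67 of the 92 (72.8%) had a change below 0, against 51.0% of all. Before adjustment 29 rows (31.5%) had a p under 0.05, 5 higher and 24 lower, against 36.6% of all tested genes. The share called was thus below that of the genome, while the signs lay mostly on the lower side.

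**Figure D1:**
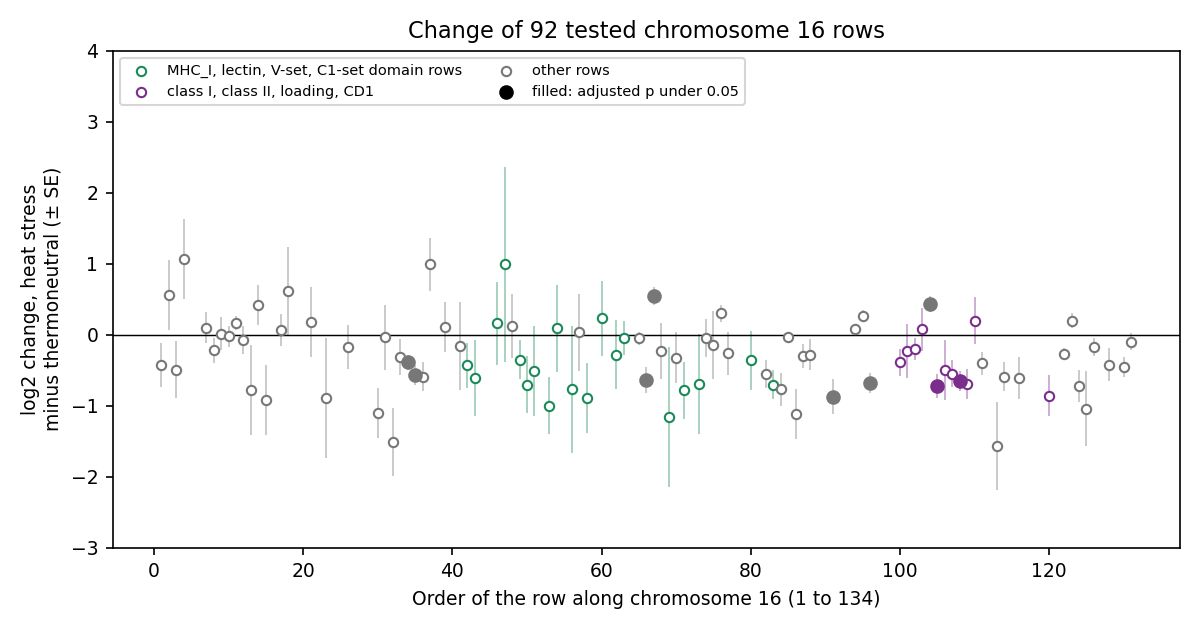
Log2 change of heat stress minus thermoneutral, with its standard error, for the 92 tested rows in their order along chromosome 16 (x axis, order 1 to 134). Filled circles are the 9 rows with an adjusted p under 0.05, and 67 of the 92 circles lie below 0.

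BF2 had the highest level per length on the chromosome. This gene, the class I gene that is the dominantly expressed one in the common haplotypes studied, had a mean deposited FPKM of 1332, which placed it 28th among all rows of the table. BF1, the second class I gene, followed with 551 FPKM, and BF2 exceeded BF1 in each library. After them came RACK1 with 491, the class I loading factor TAPBP (tapasin) with 294.5, TUBB with 166, the class II beta chain gene BLB2 with 111, BRD2 with 100.5, an ATP-binding cassette (ABC) transporter row on the plus strand with 97.1, BLB1 with 78.9 and an ABC transporter row on the minus strand with 72.2 FPKM. BF1 and RACK1 are not separated, since RACK1 exceeded BF1 in thermoneutral replicate 1 (499 against 474 FPKM) and in heat stress replicate 1 (533 against 316 FPKM). BLB2, BRD2 and the plus strand ABC row are likewise neighbours in this order with overlapping libraries. The DM genes were lower, with 9.94 FPKM for DMB2, 6.15 for MHCDMA (DMA) and 0.267 for DMB1.

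**Figure D2:**
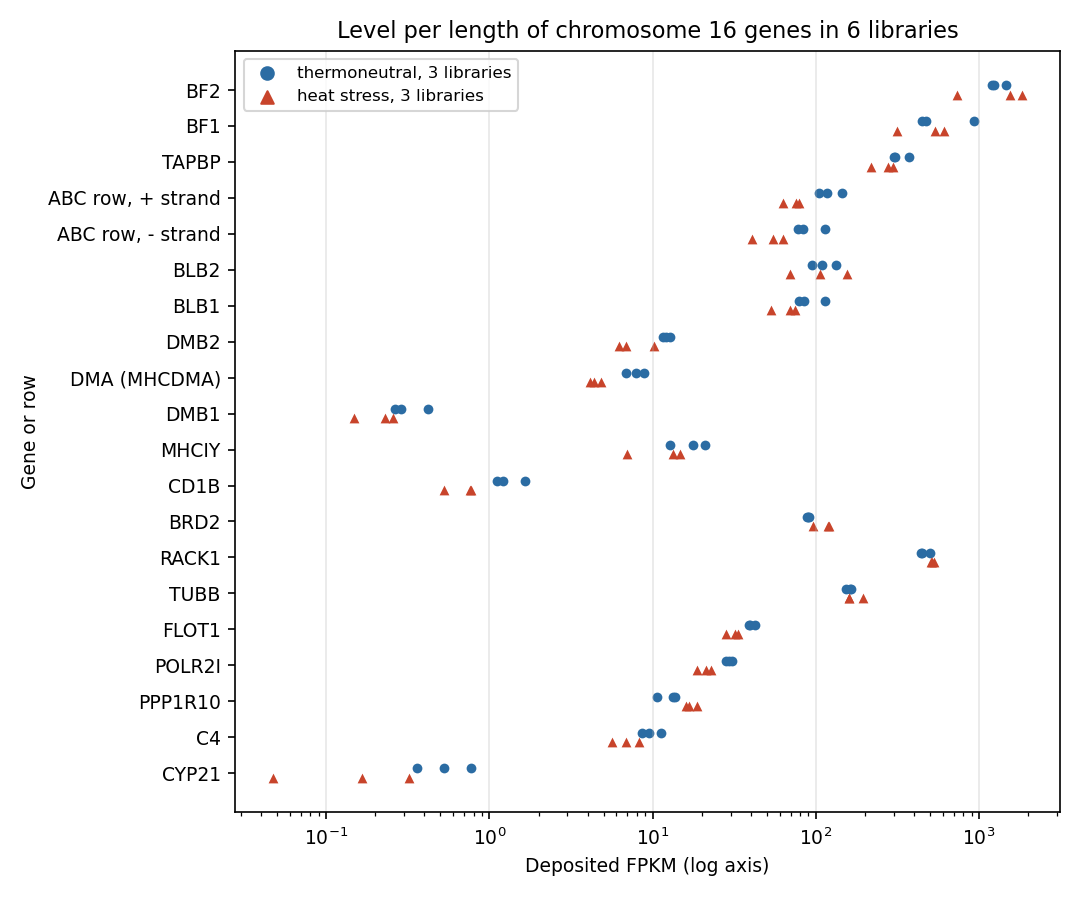
Deposited FPKM (log axis) of 20 chromosome 16 genes or rows in each library, blue circles for the 3 thermoneutral and red triangles for the 3 heat stress libraries. BF2 is at the top of the range, with a mean of 1332 FPKM, and the heat stress triangles of both ABC transporter rows lie left of every thermoneutral circle.

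BF2 stood at 1864, 2223 and 1833 CPM in thermoneutral replicates 1, 2 and 3 and at 1168, 3078 and 2548 CPM in heat stress replicates 1, 2 and 3. Heat stress replicate 1 was the lowest of all 6 libraries and the other two heat stress libraries were the highest, so the heat stress values enclosed the thermoneutral ones. The log2 change was 0.20 (SE 0.33, adjusted p = 0.705 by edgeR). Without heat stress replicate 1 it was 0.53, with an adjusted p of 0.0287 by edgeR, and without heat stress replicate 2 it was −0.07. The direction of BF2 therefore rested on single libraries.

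BF1 stood at 831, 1640 and 791 CPM in the thermoneutral libraries and at 584, 1183 and 1018 CPM under heat stress. Thermoneutral replicate 2 was the highest and heat stress replicate 1 the lowest, and the groups overlapped. Its log2 change was −0.23 (SE 0.38, adjusted p = 0.702 by edgeR). Without thermoneutral replicate 2 it was 0.20. The BF1 row is annotated from base 2565405 to 2595262 on the plus strand and spans 8 other rows, 5 of them on its own strand, among them BLB2, MHCDMA, DMB1 and DMB2. How the counting split reads among these rows is not stated, so the BF1 counts are uncertain.

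The share of the 2 class I genes did not separate the groups. The ratio of BF2 to BF1 in FPKM was 2.59, 1.57 and 2.68 in the thermoneutral libraries and 2.31, 3.01 and 2.90 under heat stress (two-sided exact permutation test, p = 0.4, where the smallest p that 3 against 3 allows is 0.1). Near-identical class I reads can be placed on either gene, so their sum was taken too. How reads that fit BF1 and BF2 equally were counted is not known here, so the sum may miss some. The sum of both was 2695, 3863 and 2623 CPM in the thermoneutral libraries and 1752, 4261 and 3566 CPM under heat stress. Both the lowest and the highest sum were heat stress libraries.

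In the stretch from BF1 to BF2 lie 2 rows with ABC transporter domains, to which the table gives no symbol. One, ENSGALG00000029381, is protein coding, on the plus strand at chr16:2592345-2605843, and its annotated domain is the ATP-binding part of such a transporter. It starts inside the BF1 row on the same strand, so reads there can be counted to either. The other, ENSGALG00000035075, is called a pseudogene, lies within the first on the minus strand at chr16:2596216-2601012, and has the membrane-spanning part. In the later RefSeq assembly GRCg7b the genes between BF1 and BF2 are TAP1 and TAP2, but the rows were not matched to them by any identifier.

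The plus strand ABC row fell under heat stress. It stood at 103, 142 and 116 CPM in the thermoneutral libraries and at 64.9, 81.6 and 84.1 CPM under heat stress. Every heat stress library was below every thermoneutral one. The means were 120.4 ± 20.1 and 76.9 ± 10.5 CPM (SD, n = 3 each), a log2 change of −0.65 (SE 0.14, edgeR adjusted p = 0.0239). In such bulk samples fewer cells of a type and less RNA per cell cannot be told apart.

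The minus strand ABC row stood at 130.4, 193.5 and 142 CPM in the thermoneutral libraries and at 71.8, 101 and 115 CPM under heat stress. These groups did not overlap either, but the change of −0.69 (SE 0.21) did not pass, with an adjusted p of 0.0633 by edgeR. DESeq2 called it, with an adjusted p of 0.00581. Because the 2 rows overlap on opposite strands and the strand setting of the counting is not given here, their reads may be shared, and their sum was 233, 336 and 258 CPM against 137, 183 and 199 CPM under heat stress.

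TAPBP stood at 349.6, 432 and 355 CPM in the thermoneutral libraries and at 265, 379 and 346 CPM under heat stress. The groups overlapped, and the change of −0.20 (SE 0.15) did not pass (edgeR adjusted p = 0.363). TAPBP and the 2 ABC rows thus held 1 lower call among 3 rows, where 9.52% of all tested genes were called lower. All 3 changes were below 0, as were 72.8% of the 92 chromosome 16 rows and 51.0% of all tested genes. The 2 ABC rows may share reads, so these are not taken as 3 separate observations.

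The class II beta chain genes BLB1 and BLB2 did not pass. BLB1 stood at 84.6, 91.3 and 123 CPM in the thermoneutral libraries and at 60.1, 87.9 and 80.8 CPM under heat stress (log2 change −0.39, SE 0.19, edgeR adjusted p = 0.18). BLB2 stood at 88.9, 125.5 and 103 CPM against 105, 160.0 and 70.3 CPM (log2 change 0.08, SE 0.30, edgeR adjusted p = 0.878). Heat stress replicate 2 was the highest and replicate 3 the lowest of the 6 for BLB2, and without replicate 2 its change was −0.26. The ratio of BLB2 to BLB1 in FPKM was 1.20, 1.57 and 0.961 in the thermoneutral libraries and 2.00, 2.09 and 0.997 under heat stress. A two-sided exact permutation test gave p = 0.3, where the smallest p that 3 against 3 allows is 0.1. The sum of BLB1 and BLB2 was 173.5, 217 and 227 CPM against 165, 248 and 151 CPM, with overlapping groups.

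MHCDMA, the alpha chain of the DM peptide exchanger, fell under heat stress. It stood at 5.99, 6.98 and 7.85 CPM in the thermoneutral libraries and at 4.06, 4.02 and 4.61 CPM under heat stress. The groups did not overlap, and the log2 change was −0.72 (SE 0.17, edgeR adjusted p = 0.0293). The MHCDMA row overlaps DMB1 and BF1 on the same strand, and how any shared reads were counted is not stated. Its partner DMB2, a DM beta chain gene, stood at 13.2, 12.2 and 12.7 CPM against 11.2, 7.89 and 7.0 CPM. These groups did not overlap, but the change of −0.55 (SE 0.19) had an edgeR adjusted p of 0.0772. DMB2 passed by DESeq2, and by edgeR without heat stress replicate 1 (adjusted p = 0.0137). DMB1, the other beta chain gene, was near the floor of detection, between 0.413 and 0.661 CPM in the thermoneutral and between 0.241 and 0.435 CPM in the heat stress libraries (log2 change −0.50, edgeR adjusted p = 0.427).

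Macrophages and dendritic cells use class II and DM genes, and some macrophage markers were lower in the same samples. Of 14 tested markers of both cell types, 4 were lower under heat stress, 0 were higher and 10 did not pass, with a median log2 change of −0.40. Among all tested genes 9.52% were called lower and 10.2% higher. The 4 lower markers were the complement genes C1QA, C1QB and C1QC and the macrophage receptor VSIG4. Among the 10 others were the macrophage markers CSF1R, MARCO and MRC1 (edgeR adjusted p = 0.0526, 0.0726 and 0.278). The dendritic cell markers XCR1 (edgeR adjusted p = 0.676) and FLT3 (edgeR adjusted p = 0.861) did not pass either. Their means were only 0.928 and 0.854 CPM, so the list does not separate these cell types. C1QC had a log2 change of −1.0 (edgeR adjusted p = 0.0116). The summed level of the list was 169, 191 and 202 CPM in the thermoneutral and 135, 117 and 140 CPM in the heat stress libraries, and no marker was at 0 throughout. The part of these cells in the values of MHCDMA and of the ABC rows was not tested.

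CD1 molecules present lipid antigens, and chicken CD1 genes lie beside the B locus. CD1B stood at 1.94, 1.82 and 2.68 CPM in the thermoneutral and at 1.29, 0.933 and 1.35 CPM in the heat stress libraries. The groups did not overlap, but the change of −0.86 (SE 0.29) did not pass (edgeR adjusted p = 0.0716). CD1C was not tested, with at most 0.583 CPM in any library.

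The Y locus and its surroundings held 13 rows with an annotated MHC class I domain, of which 9 were tested and 0 called by edgeR or by any scaling or filter alternative. DESeq2 called 1 of them lower, ENSGALG00000047380, and edgeR called that row without thermoneutral replicate 3 and ENSGALG00000050329 without heat stress replicate 3. The median log2 change of the 9 was −0.35, with a range from −1.0 to 0.99. By edgeR 19.8% of all tested genes were called. MHCIY, the Y locus class I gene with a symbol, stood at 49.6, 42.2 and 30.4 CPM in the thermoneutral and at 17.4, 35.2 and 37.9 CPM in the heat stress libraries (log2 change −0.43, SE 0.32, edgeR adjusted p = 0.368). Heat stress replicate 1 was the lowest and the groups overlapped. The rows of this domain summed to 140.0, 143 and 111 CPM in the thermoneutral libraries and to 61.9, 147 and 104 CPM under heat stress, again with replicate 1 lowest and replicate 2 highest of the 6. Many of these rows overlap each other, so reads can be split among them.

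The lectin-like rows of the Y and B loci, whose chicken members resemble natural killer cell receptors, numbered 8, with 5 tested and 0 called. For this and the next groups, the share called among all tested genes was 19.8%. BLEC3 came nearest, at 3.16, 2.89 and 2.84 CPM in the thermoneutral and 2.05, 1.76 and 1.65 CPM in the heat stress libraries. Its groups did not overlap, and the change was −0.70 (SE 0.21, edgeR adjusted p = 0.0547). Upper-quartile scaling, DESeq2 and limma-voom each called it lower. The V-set domain rows, a domain found in the BG butyrophilin-like proteins of the chicken MHC, numbered 7, with 4 tested, 0 called and a median log2 change of −0.73. Of the 3 rows with other immunoglobulin C1-set domains 1 was tested and 0 were called. All 7 scavenger receptor (SRCR) domain rows were untested, with at most 6 counts in any library.

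BTN1, a butyrophilin family gene at the edge of the B locus, had the smallest adjusted p on the chromosome. It stood at 17.4, 17.5 and 19.8 CPM in the thermoneutral and at 13.3, 10 and 10.8 CPM in the heat stress libraries. The groups did not overlap. The means were 18.2 ± 1.36 and 11.3 ± 1.70 CPM (SD, n = 3 each), a log2 change of −0.68 (SE 0.14, edgeR adjusted p = 0.0182). The row overlaps TRIM27.2 on the same strand.

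Among the 9 tripartite motif (TRIM) and SPRY domain rows, a family that includes ubiquitin ligases, 5 were tested and 1 was called. The share called among all tested genes was 19.8%. TRIM39.2 fell from 3.60, 4.13 and 2.53 CPM in the thermoneutral to 1.93, 1.72 and 1.96 CPM in the heat stress libraries (log2 change −0.87, SE 0.25, edgeR adjusted p = 0.0465). The groups did not overlap. The call was lost with no filter on low counts (edgeR adjusted p = 0.0537) and with limma-voom (adjusted p = 0.0585). TRIM41 was among the steadiest rows, between 27.8 and 30.6 CPM in the thermoneutral and between 30.2 and 31.6 CPM in the heat stress libraries (log2 change 0.08, SE 0.08, edgeR adjusted p = 0.495).

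Zinc finger rows, whose products are mostly presumed DNA-binding proteins, numbered 13, all tested, and 1 was called. That row, at chr16:1761594-1773388 on the minus strand, has a KRAB box domain and no Ensembl identifier. It fell from 38.1, 32.1 and 32.7 CPM to 20.4, 21.1 and 28.2 CPM under heat stress, with groups that did not overlap (log2 change −0.56, SE 0.14, edgeR adjusted p = 0.0322). Among all tested genes 9.52% were called lower. Of the 13 zinc finger rows 10 had a change below 0, against 72.8% of the 92 chromosome 16 rows and 51.0% of all tested genes. Their median was −0.26, against −0.30 for the 92 rows. ZNF692 stood at 16.7, 11.5 and 12.4 CPM against 9.84, 5.78 and 8.17 CPM, without overlap (log2 change −0.77, SE 0.23, edgeR adjusted p = 0.0524). It passed with no filter, with the stricter filter, with upper-quartile scaling, with DESeq2 and without heat stress replicate 1.

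The 3 largest falls and the largest rise at a mean of 1 CPM or more did not pass by edgeR. The next rises, PPP1R10 and BRD2, passed and are described below. The row at chr16:1721916-1725784, without an Ensembl identifier, stood at 10.8, 3.10 and 8.12 CPM in the thermoneutral and 1.57, 2.91 and 3.26 CPM in the heat stress libraries (log2 change −1.51, SE 0.48, edgeR adjusted p = 0.0689). The V-set row ENSGALG00000040101 had a log2 change of −1.16 (edgeR adjusted p = 0.442), and the zinc finger row ENSGALG00000049174 one of −1.12 (edgeR adjusted p = 0.0611). On the higher side, the row at chr16:528358-529442 had a log2 change of 1.07 (edgeR adjusted p = 0.211) that came mostly from heat stress replicate 3, at 4.83 CPM against 0.964 and 1.83 CPM in the other two. DESeq2 called the first of these 4 rows lower (adjusted p = 0.00701), and DESeq2 and limma-voom called ENSGALG00000049174 lower. By edgeR the row at chr16:1721916-1725784 passed without thermoneutral replicate 2, and ENSGALG00000049174 and the row at chr16:528358-529442 passed without heat stress replicate 1.

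Single genes with other functions lie in and around the complex. Of their 15 tested rows 2 were called higher, against 10.2% of all tested genes. These were the only higher calls on the chromosome, and their count was not tested against that share. BRD2, a bromodomain protein that binds acetylated histones, rose from 261, 261 and 269 CPM in the thermoneutral to 298, 383 and 381 CPM in the heat stress libraries. The groups did not overlap, and the SD was 4.64 CPM among the thermoneutral and 48.3 CPM among the heat stress pools (n = 3 each). The log2 change was 0.43 (SE 0.11, edgeR adjusted p = 0.0305). The gene lies between BLB2 and MHCDMA at chr16:2574359-2580734, inside the span of the BF1 row on the opposite strand.

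PPP1R10, a subunit that holds protein phosphatase 1 in the nucleus, rose from 15.6, 19.8 and 20.3 CPM to 24.8, 30.1 and 26.3 CPM under heat stress. Its groups did not overlap (log2 change 0.55, SE 0.13, edgeR adjusted p = 0.0282). ENSGALG00000052089, which has no symbol or domain and overlaps PPP1R10 on the same strand, went the other way, from 18.2, 13.1 and 14.3 CPM to 9.0, 8.79 and 11.5 CPM (log2 change −0.64, SE 0.18, edgeR adjusted p = 0.0413). How reads in the shared stretch were counted is not stated.

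POLR2I, a small subunit of RNA polymerase II, fell from 36.3, 38.3 and 39.9 CPM to 28.6, 32.6 and 26 CPM, without overlap (log2 change −0.39, SE 0.10, edgeR adjusted p = 0.0354). RACK1, a scaffold protein of the ribosome, stood at 1036, 939 and 931 CPM in the thermoneutral and at 1168, 1160 and 1165 CPM in the heat stress libraries. Its groups did not overlap, and its edgeR adjusted p was 0.0518 (log2 change 0.27, SE 0.08). DESeq2 and limma-voom called it higher. FLOT1, a flotillin of membrane rafts, had a log2 change of −0.27 (edgeR adjusted p = 0.0545) and TUBB, a beta tubulin, one of 0.20 (edgeR adjusted p = 0.183).

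C4, the complement component that lies next to BF2, stood at 46.0, 55.0 and 41.9 CPM in the thermoneutral and at 35.0, 43.7 and 29.4 CPM in the heat stress libraries. The groups overlapped, and the change of −0.40 (SE 0.16) did not pass (edgeR adjusted p = 0.121). CYP21, the steroid 21-hydroxylase gene beside it, was low, at 0.728, 1.07 and 0.505 CPM against 0.241, 0.0717 and 0.478 CPM. Its groups did not overlap, and the change of −1.56 (SE 0.62) did not pass (edgeR adjusted p = 0.112).

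The remaining rows complete the account, where 19.8% of all tested genes were called, 10.2% higher and 9.52% lower. Of 19 rows of single genes with other functions, which include BTN1 and the 8 with a symbol just described, 15 were tested, with 2 higher and 2 lower calls. Of 15 rows with no symbol and no informative domain, 10 were tested and 1 was called lower. Of 15 rows without an Ensembl identifier or a domain of the groups described here, 11 were tested and 0 called. For 8 non-coding RNA rows these counts were 6 and 0, and for 5 rows with a fibronectin or fibrinogen domain 2 and 0. DESeq2 called 3 of those last rows without an Ensembl identifier lower, 2 without a domain and 1 with a fibronectin or fibrinogen domain.

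No overlap between the groups was seen in 28 of the 92 rows (30.4%), against 42.6% of all tested genes. They were higher under heat stress in 5 rows, where 21.5% of all genes were, and lower in 23, where 21.0% of all were. DESeq2 called 23 of the 92 rows, 3 higher and 20 lower, which is 25% against 25.6% of all genes by the same tool. Among the rows that DESeq2 added were DMB2, the minus strand ABC row, RACK1, FLOT1, BLEC3 and ZNF692.

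Leaving out 1 library changed the calls. Without thermoneutral replicates 1, 2 and 3 in turn edgeR called 3, 1 and 2 chromosome 16 rows. These were 3.16%, 1.05% and 2.08% of the rows tested, against 10.6%, 2.52% and 7.68% of all genes tested. Without heat stress replicates 2 and 3 edgeR called 1 and 2 rows (1.04% and 2.04%), against 9.23% and 1.87% of all genes. Without heat stress replicate 1 it called 15 rows (15.3%), against 23.2% of all genes. Of those 15 rows 10 were lower and 5 higher (BF2, BG1, BRD2, PPP1R10 and the row at chr16:528358-529442). BTN1 and the plus strand ABC row passed in 2 of the 6 fits, those that left out thermoneutral replicate 1 or heat stress replicate 1. BRD2 and PPP1R10 passed without heat stress replicate 1 and MHCDMA without thermoneutral replicate 1. POLR2I passed without heat stress replicate 2, TRIM39.2 without thermoneutral replicate 3 and the KRAB row without heat stress replicate 3. ENSGALG00000052089 passed in 0 of the 6, with adjusted p-values from 0.0655 to 0.116. No called row changed direction in any of these fits.

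The median spread between pools of one group was larger over chromosome 16 rows than over all tested genes. The labels do not give the haplotypes of the pools, and rows were matched for level only by a cut of 10 CPM. Whether the spread lay in expression or in how reads aligned to the reference was not tested. Over the 38 chromosome 16 rows at a mean of 10 CPM or more, the median SD of log2 CPM within groups was 0.238, against 0.124 for all 10485 tested genes at that level. Of these 38, 15 lay above 0.294, the 90th percentile of all. The median was 0.549 for the 2 classical class I genes, 0.629 for 4 rows with the class I domain of the Y locus, 0.288 for 3 class II rows and 0.225 for TAPBP and the 2 ABC rows. For BF2 the SD was 0.154 among the thermoneutral and 0.741 among the heat stress libraries. BF1 had 0.588 and 0.536, and BLB2 0.249 and 0.592. These medians thus do not show in which group the spread lay. The median was 0.077 for 3 TRIM and SPRY rows and 0.159 for 12 single genes of other function. RACK1 had an SD of 0.06, so the spread was not shared by all rows of the chromosome.

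**Figure D3:**
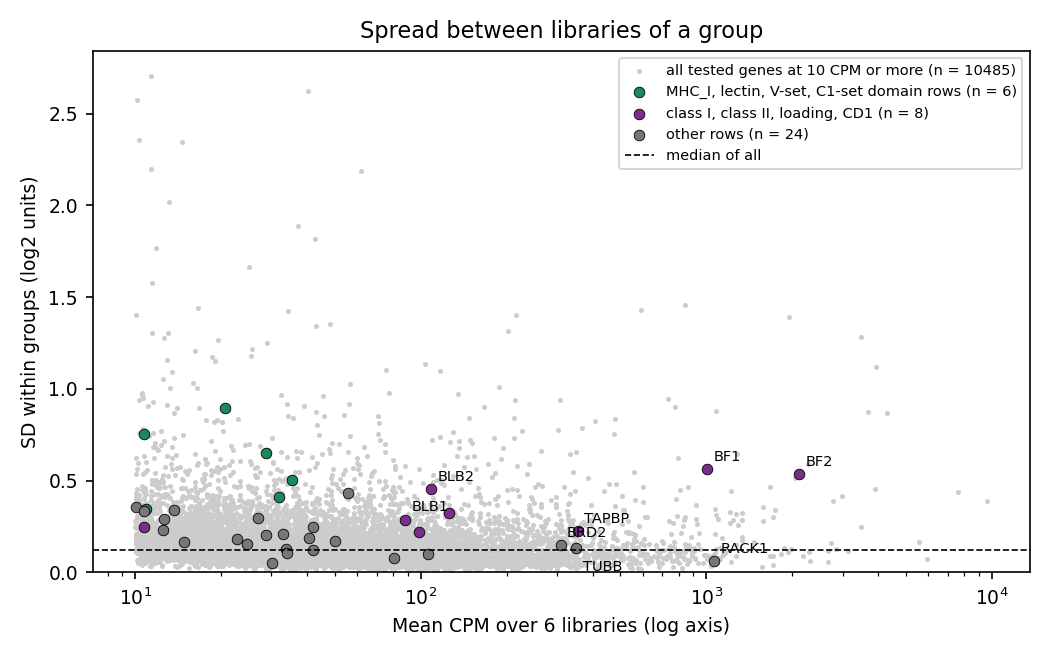
SD of log2 CPM between libraries, pooled within the 2 groups (y axis), against mean CPM (x axis, log axis) for 10485 tested genes at 10 CPM or more (grey) and the 38 chromosome 16 rows among them (coloured). The dashed line is the median of all genes, 0.124. BF1 and BF2 lie well above it and RACK1 below it.

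BF1, BF2, TAPBP and both ABC rows had the same highest thermoneutral library, replicate 2, and the same lowest of the 6 libraries, heat stress replicate 1. The order of the other libraries differed among them, with heat stress replicate 2 above replicate 3 for BF1, BF2 and TAPBP and below it for both ABC rows. B2M, NLRC5 and IRF1, which lie elsewhere, are set beside them as examples with the same 2 libraries at those places. They were picked after their values had been seen and do not stand for all genes tied to class I. Nor were these places particular to class I, since genes of the class II list had them. Among these were the invariant chain CD74 (1006.6 CPM in thermoneutral replicate 2, 737.3 CPM in heat stress replicate 1) and CTSS (582 and 309.6 CPM). The class II promoter factor RFX5 had the same libraries at those places. The share of all genes with the same places is not given here. B2M, the class I light chain on chromosome 10, stood at 2810, 3792 and 2558 CPM in the thermoneutral and at 1870.2, 3419 and 3500.1 CPM in the heat stress libraries (log2 change −0.06, SE 0.26, edgeR adjusted p = 0.894).

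NLRC5, an activator of class I genes in mammals, had a log2 change of −0.25 (edgeR adjusted p = 0.489) and IRF1, an interferon response factor, one of −0.49 (edgeR adjusted p = 0.155). Over all 92 rows heat stress replicate 1 was the lowest library for 22 (23.9%, against 13.8% of all tested genes) and heat stress replicate 2 for 29 (31.5%, against 20.6%).

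**Figure D4:**
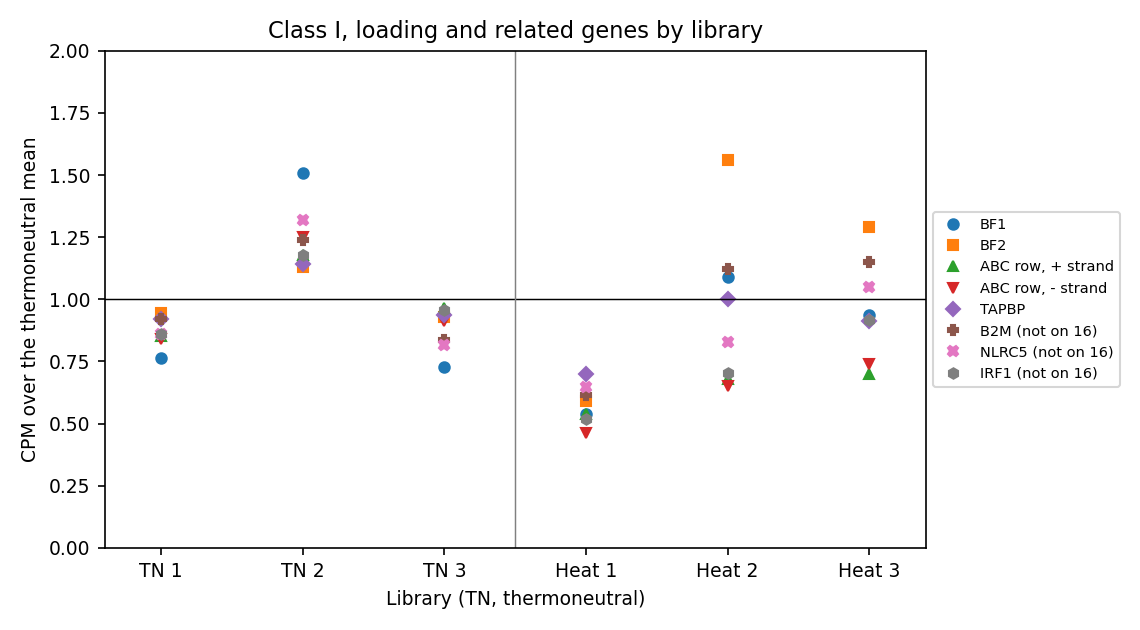
CPM of 5 chromosome 16 rows and 3 genes elsewhere in each library (x axis), divided by the gene's thermoneutral mean (y axis, ratio). For the 8 genes shown, which were picked after their values had been seen, thermoneutral replicate 2 is the highest thermoneutral library and heat stress replicate 1 lies below 1.

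Partners of class I outside chromosome 16 were led by chaperones of the endoplasmic reticulum. Of 10 tested genes of the class I and peptide loading list, 4 were higher under heat stress, against 10.2% of all tested genes. Lower calls were 0, against 9.52% of all, and the median log2 change of the list was 0.06. The 4 were HSPA5 (log2 change 1.41, edgeR adjusted p = 0.0092), CANX (0.64, adjusted p = 0.0119), CALR (0.58, adjusted p = 0.0115) and PDIA3 (0.38, adjusted p = 0.0174). All 4 fold proteins in general as well as class I chains. The list was chosen with earlier results of these data known, and its count was not tested against the share of all genes.

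Of 11 tested class II genes elsewhere, 1 was higher and 2 were lower, with a median of −0.13. Among all tested genes 10.2% were called higher and 9.52% lower. NFYA, a subunit of the CCAAT-binding factor that acts at class II and many other promoters, rose (log2 change 1.01, edgeR adjusted p = 0.00722). IFI30, a thiol reductase of antigen processing, fell (−0.77, edgeR adjusted p = 0.00754), as did RFX5, a class II promoter factor (−0.50, edgeR adjusted p = 0.0304). The invariant chain CD74, named Ii in the table, had a log2 change of −0.17 (edgeR adjusted p = 0.321). Of 14 tested genes of interferon gamma and NF-kB input, 2 were higher (IFNGR2 and IRF2) and 2 lower, with a median of −0.06. Among the 10 that did not pass, IRF7 had a log2 change of −1.02 (edgeR adjusted p = 0.0594). IFNGR1, also among those 10, had one of 0.31 (edgeR adjusted p = 0.0672). The class II and interferon counts rest on 1 or 2 genes in each direction and were not tested against the shares of all genes. IRF8, a factor of macrophages and dendritic cells, fell (−0.69, edgeR adjusted p = 0.00873), and so did SOCS3, an inhibitor of cytokine signals (−0.62, edgeR adjusted p = 0.0459).

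The other marker lists showed few calls, where 19.8% of all tested genes were called. Of 10 T cell and 5 natural killer cell markers 0 were called, with median log2 changes of −0.27 and −0.25, and T cell markers summed to 103 to 122 CPM in the thermoneutral and 80.9 to 118 CPM in the heat stress libraries. Of 7 B and plasma cell markers BCL6 was higher and DERL3 lower. Of 7 thrombocyte and heterophil markers and 5 red cell markers 0 were called. The oviduct and epithelium list had 1 higher call, EMX2, among 13, and PGR (467 to 632 CPM) and EPCAM (1927 to 2474 CPM) were high in every library. Of 8 rows of the liver, brain and skeletal muscle list 5 were under 1 CPM, ACTA1 was lower under heat stress, and APOA1 reached 451 to 656 CPM.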

How the data were processed

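Read counts per gene, deposited as whole numbers, were made by the authors with fastp, HISAT2 2.0.5 and featureCounts 1.5.0-p3 on GRCg6a, per the submitters' processing notes. The deposited FPKM values of the authors were used to compare levels between genes. The annotation release and the strand setting were not given in the sources used here. Second strand cDNA was made with dUTP, per the labels' protocols. Library totals ran from 23438814 to 29502991 counts, so counting error matters mainly near 1 CPM.

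The members and gene lists were chosen with earlier results of these data known. The whole table was fitted in edgeR 4.0.16 (R 4.3.3) with TMM, filterByExpr and the robust quasi-likelihood test. The SE is the absolute log2 change over the square root of F. Spread used log2(CPM + 0.1). Named were all called rows, the 10 highest by FPKM, the 3 largest rises and falls at 1 CPM or more, a set of known MHC genes, and up to 3 called genes per list. Further genes were named after their values were seen. A gene of the named set is not reported here, nor is it in the library comparison of class I genes, so the genes shown there are not all that were looked at. Scripts were tested on simulated data. Alternatives were 2 other scalings, 2 filters, DESeq2 1.42.0, limma-voom 3.58.1, a replicate block and each library left out. RefSeq GRCg7b gave names only. Sequences were not analysed here.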

Additional observations from a re-analysis of the deposited data

How the results depend on the processing

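Against 9 of 92 tested rows called (9.78%, against 19.8% of all genes), relative log expression scaling gave the same 9. No filter gave 9 of 134 tested (6.72%), with ZNF692 in place of TRIM39.2, against 2943 of all 20285 genes. The stricter filter asked for a mean of 5 CPM, and 1 CPM or more in each library of one group. It gave 10 of 51 tested (19.6%), against 2908 of 11846 genes. Of 92 tested rows limma-voom called 11 (12.0%) and upper-quartile scaling 13 (14.1%), 11 of those 13 lower. Among all 15655 genes limma-voom called 2998 and upper-quartile scaling 3054. Upper-quartile scaling moved the median of all genes to −0.049. DESeq2 called 23, 20 of them lower. With 1 library left out, calls ranged from 1 to 15, higher calls from 0 to 5 and lower calls from 1 to 10. In those fits log2 changes ranged from −0.07 to 0.53 for BF2, from −0.43 to 0.20 for BF1, from −0.26 to 0.33 for BLB2, from −0.44 to 0.0 for NLRC5 and from −0.20 to 0.20 for B2M. The cause was not tested.

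For the lists elsewhere, class I higher calls ranged from 1 to 5 and lower calls from 0 to 1 without single libraries, and upper-quartile scaling and the stricter filter each gave 1 lower call. Class II higher calls were 2 with DESeq2, and lower calls ranged from 1 to 2. Interferon gamma and NF-kB higher calls were 1 with upper-quartile scaling, with no filter and with the stricter filter, and ranged from 0 to 2 without single libraries, and lower calls ranged from 1 to 3.

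The labels name no pairing of libraries by replicate number. Same-numbered deviations correlated at −0.048, 0.25 and 0.072, and differently numbered ones between −0.27 and 0.21. With 3 libraries per group these values cannot decide whether the libraries are paired. With the replicate number as a block 11 of 92 tested rows (12.0%) were called, 9 lower, against 2722 of all 15655 genes. C4 (adjusted p = 0.0296), ENSGALG00000035075, ENSGALG00000049174, ENSGALG00000049626 and ZNF692 were gained, and POLR2I (0.0504), ENSGALG00000052089 (0.0524) and TRIM39.2 (0.0793) were lost. The block gave 2 higher class II calls and 1 higher interferon gamma and NF-kB call. Rows under about 1 CPM rest on few counts, and overlapping rows may share reads in unknown parts. Overlaps were taken from the start and end of each row, and overlap of their exons was not examined.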

Other observations

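Some chromosome 16 rows were present in one pool and nearly absent in another of the same group. By a rule set after the values were seen, at most 5 counts in one library and at least 25 in another of the same group, 8 of the 134 rows (5.97%) behaved so, against 164 of all rows of the table (0.808%). Because the rule followed the values and the rows were not matched for level, no conclusion is drawn from these shares. Heat stress replicate 2, the most deeply sequenced library, had the highest raw count for 6 of the 8. Scaled to library size, ENSGALG00000051088, which is among those 6, was highest in thermoneutral replicate 2 (1.24 CPM, against 1.11 CPM in heat stress replicate 2). BG1, a BG gene of the B locus, had 4, 6 and 5 counts in the thermoneutral and 1, 127 and 30 counts in the heat stress libraries. ENSGALG00000051088, a row with the class I domain in the Y locus, had 0, 30 and 0 counts against 28, 31 and 4. IL4I1, an amino acid oxidase gene, had 1, 38 and 9 counts against 2, 0 and 0.

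A pair of fibronectin domain rows without an Ensembl identifier showed the sharpest pattern. The row at chr16:2638180-2639043 had 0 counts in each thermoneutral library and 0, 42 and 2 counts in the heat stress libraries. The row at chr16:2646872-2647723 had 0, 1 and 0 counts against 0, 56 and 0. The others were a lectin-like row (ENSGALG00000042684), a row without a domain (ENSGALG00000054397) with 5, 3 and 34 counts against 5, 72 and 1, and the V-set row ENSGALG00000040101, which had 92, 3 and 67 counts in the heat stress libraries. No comparison of the 2 groups is drawn from these rows.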
